A study of Mus musculus with 12 samples.

Results

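The genes described here are 46 regulators and products of RAS signalling, measured by bulk RNA-seq in whole mouse skin. They were taken by name, after the 53379 Ensembl gene IDs of the count tables had been matched to GENCODE M21 symbols, and all 46 were found and passed the filter on low counts. By role they comprised 5 RAS GTPases, 9 RAS GTPase-activating proteins (RAS-GAPs), 8 guanine nucleotide exchange factors (RAS-GEFs) and 4 adaptors and RAF activators. The remaining 20 were 6 kinases and scaffolds, 9 feedback inhibitors and 5 output genes. They are a selection and not the whole pathway.

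The 12 samples fell into 4 groups of 3, from mice of 3 months on a C57BL/6 and B6D2 background. All mice carried Prss56Cre and the reporter R26tdTom, which is the whole genotype of the control group. The Nf1-KO group carried Nf1flox/- in addition. Skin was taken either uninjured or 14 days after injury. Cre was driven from the Prss56 gene, known as a marker of boundary cap cells, which sit where nerve roots enter and leave the spinal cord and give rise to Schwann cells. The floxed allele can be removed only where that gene is or was active, while the null allele is present in every cell of an Nf1-KO mouse. Whole skin holds many other cell types, and in bulk samples fewer cells of a type and less RNA per cell cannot be told apart.

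RAS proteins are switches that are active when bound to GTP. RAS-GEFs load them with GTP, and RAS-GAPs, among them neurofibromin, the product of Nf1, return them to the inactive state. Active RAS engages RAF kinases, which act through MEK on ERK, and ERK in turn induces both transcription factors of the ETS family and inhibitors of the pathway itself, the Spry, Spred and Dusp genes. Transcript levels of these genes do not measure GTP loading or ERK phosphorylation. In skin, loss of NF1 in the Schwann cell lineage underlies cutaneous neurofibroma.

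Library totals ran from 8817013 to 16809687 counts. Keratinocyte markers were abundant in every library (9 genes with a summed level of 15399 to 50041 CPM, counts scaled to library size with TMM factors), and all 7 Schwann cell markers had counts in every library (summed level 240.0 to 592 CPM). Skin state was bound up with sex markers. Xist, expressed from the inactive X chromosome of females, stood at 0.709 to 2.95 raw CPM in uninjured and 436 to 627 in injured libraries, and the Y-linked Ddx3y at 68.2 to 93.3 and 0 to 0.0595. Injury and sex therefore cannot be told apart in either genotype. Receptor genes of the nose, used as a measure of background because skin is not known for them, had 0.0937 to 0.329 raw CPM per kb in uninjured and 0.00225 to 0.0532 in injured libraries, highest in control uninjured 1 and 2. Ribosomal RNA-like transcripts (Gm26917, Gm42418 and AY036118) took 0.355 to 0.886% and 0.814 to 2.00% of counts. Nf1-KO uninjured 3 stood apart from the other uninjured libraries, with a summed hair follicle level of 97.7 CPM against 28.9 to 37.7 in the other 5, and Nf1-KO injured 3 had the highest macrophage sum (1438 CPM). The labels do not say that the samples are separate animals, so the p-values measure only the spread between these samples.

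Nf1 (ENSMUSG00000020716, chr11:79339693-79581612, mm10), the targeted gene, was detected in every library and did not differ between genotypes beyond the spread. Raw levels were 17.2, 13.7 and 9.41 CPM in control uninjured libraries 1 to 3 and 9.94, 11 and 8.96 in Nf1-KO uninjured ones. In injured skin they were 14.7, 8.98 and 10.6 in control and 10.1, 8.14 and 14.1 in Nf1-KO libraries. The groups overlapped in both skin states. On the TMM scale the log2 difference between Nf1-KO and control was -0.31 ± 0.28 in uninjured skin (SE, 95% interval -0.90 to 0.29, edgeR adjusted p = 0.884) and -0.11 ± 0.28 in injured skin (-0.70 to 0.48, edgeR adjusted p = 0.989). The exact 2-sided permutation test gave p = 0.3 and 0.7, where 3 against 3 cannot go below 0.1.

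Nf1 has a long transcript, and its level is given here beside the background, whose part in it was not tested. The nasal receptor level, applied to the 15.8 kb of Nf1 exons, came to 5.22, 4.11 and 1.48 raw CPM in control uninjured libraries 1 to 3 and to 2.05, 3.24 and 1.74 in Nf1-KO uninjured ones. Among the uninjured libraries, control uninjured 1 and 2 were highest in both quantities, and also in Nf1 less background. Less that amount, Nf1 stood at 12, 9.61 and 7.92 CPM in the control uninjured libraries. The Nf1-KO uninjured ones had 7.88, 7.81 and 7.22. The log2 difference was -0.35 (exact 2-sided permutation p = 0.1, the smallest this design allows). The groups no longer overlapped, but the margin was only 7.92 against 7.88 CPM. Before subtraction, 14.8% of all genes did not overlap between the uninjured groups. In injured skin the background was 0.0357 to 0.843 CPM, and the difference less background was -0.13 (exact 2-sided permutation p = 0.7). Without control uninjured 1 and 2 the uninjured difference was 0.01 on the TMM scale, which leaves 1 control library that is assumed to vary like the others. Counts per gene do not tell a recombined allele from an intact one, and the genotype is therefore not checked by them.

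**Figure D1:**
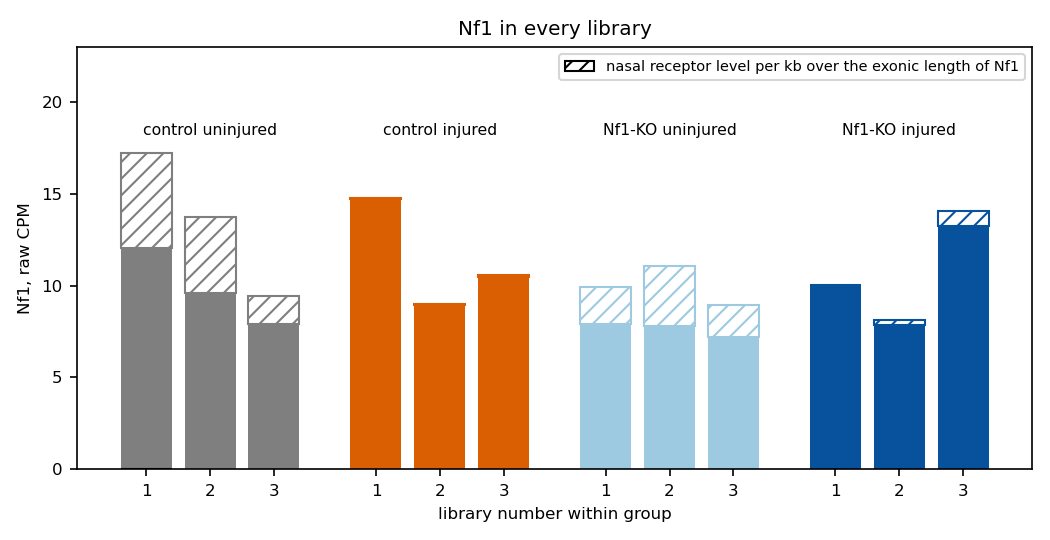
Nf1 in each of the 12 libraries, in raw CPM on the vertical axis; libraries are numbered within the 4 groups on the horizontal axis. Each full bar is the measured level, and its hatched part is the nasal receptor level per kb multiplied by the exonic length of Nf1, from 5.22 CPM in control uninjured 1 to 0.0357 CPM in Nf1-KO injured 1.

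Promoters are shown for the targeted gene, Nf1, and for Braf, Ksr1 and Ier3, which rose with injury and differ in the motifs they hold. ETS, AP-1 and CRE motifs were searched because factors that ERK acts on bind them. RefSeq promoters (GRCm38.p6, the assembly of mm10) were matched for 39 of the 46 genes, in 52 entries of 250 bases before to 50 after a start site. Those of Dusp4, Etv4, Mapk3, Phlda1, Rasal1, Rasgrp4 and Spry4 were not analysed here. Both strands were searched for the ETS core CCGGAA, the AP-1 motif TGANTCA and the CRE motif TGACGTCA. The 250 bases before the start site follow, 5′ to 3′ on the gene's strand, with matches in capitals.
Nf1, plus strand, chr11:79339642-79339891: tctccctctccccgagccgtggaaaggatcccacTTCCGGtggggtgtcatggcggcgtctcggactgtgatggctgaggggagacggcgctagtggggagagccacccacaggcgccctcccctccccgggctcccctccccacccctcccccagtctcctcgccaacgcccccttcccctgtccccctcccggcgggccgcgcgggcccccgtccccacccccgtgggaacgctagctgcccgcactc
Braf, minus strand, chr6:39725464-39725713: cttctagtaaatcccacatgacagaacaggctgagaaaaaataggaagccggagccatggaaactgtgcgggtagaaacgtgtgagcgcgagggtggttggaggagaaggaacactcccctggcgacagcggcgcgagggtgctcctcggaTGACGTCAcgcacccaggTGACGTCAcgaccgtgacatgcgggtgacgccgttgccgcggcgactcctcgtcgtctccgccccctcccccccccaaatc
Ksr1, minus strand, chr11:79059837-79060086: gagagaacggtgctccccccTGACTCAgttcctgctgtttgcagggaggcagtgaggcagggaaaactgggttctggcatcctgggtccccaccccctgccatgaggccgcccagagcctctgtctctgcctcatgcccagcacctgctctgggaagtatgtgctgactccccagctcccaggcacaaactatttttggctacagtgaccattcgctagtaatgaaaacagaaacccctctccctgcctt
Ier3, plus strand, chr17:35821463-35821712: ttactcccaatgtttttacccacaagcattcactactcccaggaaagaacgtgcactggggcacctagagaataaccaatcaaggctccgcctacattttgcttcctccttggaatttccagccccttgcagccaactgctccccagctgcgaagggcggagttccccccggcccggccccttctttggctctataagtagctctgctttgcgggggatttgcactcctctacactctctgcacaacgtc
Nf1 had 1 ETS match, 216 bases before the start. It lies on the opposite strand, so the printed strand shows its reverse complement, TTCCGG. Braf had 2 CRE matches, 99 and 81 bases before the start. The Ksr1 entry, 1 of its 2, had an AP-1 match 230 bases before the start. It was chosen for printing because of this match, and it lies inside the gene. The other Ksr1 entry, chr11:79146424-79146723 at the 5′ end of the gene, had no match. The Ier3 promoter had no match to these letters either. Over the 52 member entries, 12 held the ETS core (23.1%), against 14.9% of all 32851 promoters of the same length. AP-1 was found in 1 entry (1.92%, against 7.81% of all) and CRE in 2 (3.85%, against 1.79%), the other CRE match being in the Ptpn11 promoter. These matches describe letters and do not show that a factor was bound.

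With injury the scaffold Ksr1, the kinase Braf, the ERK phosphatases Dusp5 and Dusp6 and the output genes Etv4, Phlda1 and Ier3 rose in both genotypes, and the exchange factors Rasgrp1 and Sos2, the GAP Rasal1 and the inhibitor Spry1 fell. In control skin edgeR called 21 of 46 members, 13 higher and 8 lower, at an adjusted p under 0.05. Of all 23635 genes tested, 55.3% were called, 22.8% higher and 32.5% lower. In Nf1-KO skin 19 members were called, 14 higher and 5 lower, against 37.4% of all genes, 19.1% higher and 18.4% lower. The members' median log2 fold change was 0.31 in control and 0.24 in Nf1-KO skin, beside -0.21 and -0.09 over all genes. Injured and uninjured libraries did not overlap for 24 members in control skin (62.4% of all genes) and for 24 in Nf1-KO skin (51.6% of all genes). The share of members called was thus 45.7% in control and 41.3% in Nf1-KO skin, near the background of all genes. Of the 26 members called in either genotype, 9 were higher in both, 5 lower in both and none opposite, while 7 were called in control skin alone and 5 in Nf1-KO skin alone. Of the 14366 genes called in either genotype, 3730 were higher in both, 3824 lower in both, 3 opposite, 5515 called in control skin alone and 1294 in Nf1-KO skin alone.

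The scaling sets where 0 lies in these comparisons, and the genes kept also move the median of all genes. With TMM factors taken from all genes, which was tried only after the data had been seen, the median of all genes in control skin moved from -0.21 to -0.02 and the members called became 20 higher and 6 lower. In Nf1-KO skin, median-of-ratios scaling moved that median from -0.09 to -0.20, with 12 members higher and 6 lower. With TMM kept, a filter of 2 CPM in 3 samples gave medians of -0.04 in control and -0.02 in Nf1-KO skin. Subtracting the nasal receptor level from the counts gave the same medians. In control skin 11 members were then higher and 9 lower under either setting. In Nf1-KO skin they were 11 and 6 under the filter and 15 and 6 after subtraction. Of the genes called by edgeR, 41.3% were higher in control and 50.9% in Nf1-KO skin. DESeq2 had 29.95% and 39.9%, but it was run without the filter, on 49676 genes. Without the filter edgeR itself had 33.4% and 45.4%, so DESeq2 differed in gene set as well as in scaling. It called 12 members higher and 8 lower in control skin and 12 and 6 in Nf1-KO skin.

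Cell type markers moved with injury as well, and their part in the member changes was not tested. All 10 measured hair follicle markers were called higher in both genotypes, with a summed level of 28.9 to 97.7 CPM in uninjured and 8351 to 25728 in injured skin. Fibroblast markers (7 of 7 higher in both) summed to 1006 to 3414 and 5987 to 18332 CPM. Macrophage markers (7 of 8 higher in control, 8 of 8 in Nf1-KO) summed to 99.6 to 171 and 415 to 1438 CPM. Adipocyte, melanocyte and mast cell markers (6 of 6 each, in both genotypes), muscle (5 and 6 of 6), neutrophil (3 and 4 of 5), blood endothelium (4 and 5 of 5) and cell cycle markers (6 of 7 in both) were called higher too. Keratinocyte markers fell (5 and 6 of 9, summed 28697 to 50041 CPM uninjured, 15399 to 28728 injured), and Schwann cell markers were mixed, with 3 of 7 lower in control skin and 2 lower and 1 higher in Nf1-KO skin (summed 353 to 592 CPM uninjured, 240.0 to 453 injured). Retnlg, a neutrophil marker, was the single marker listed with 0 counts in any library.

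**Figure D2:**
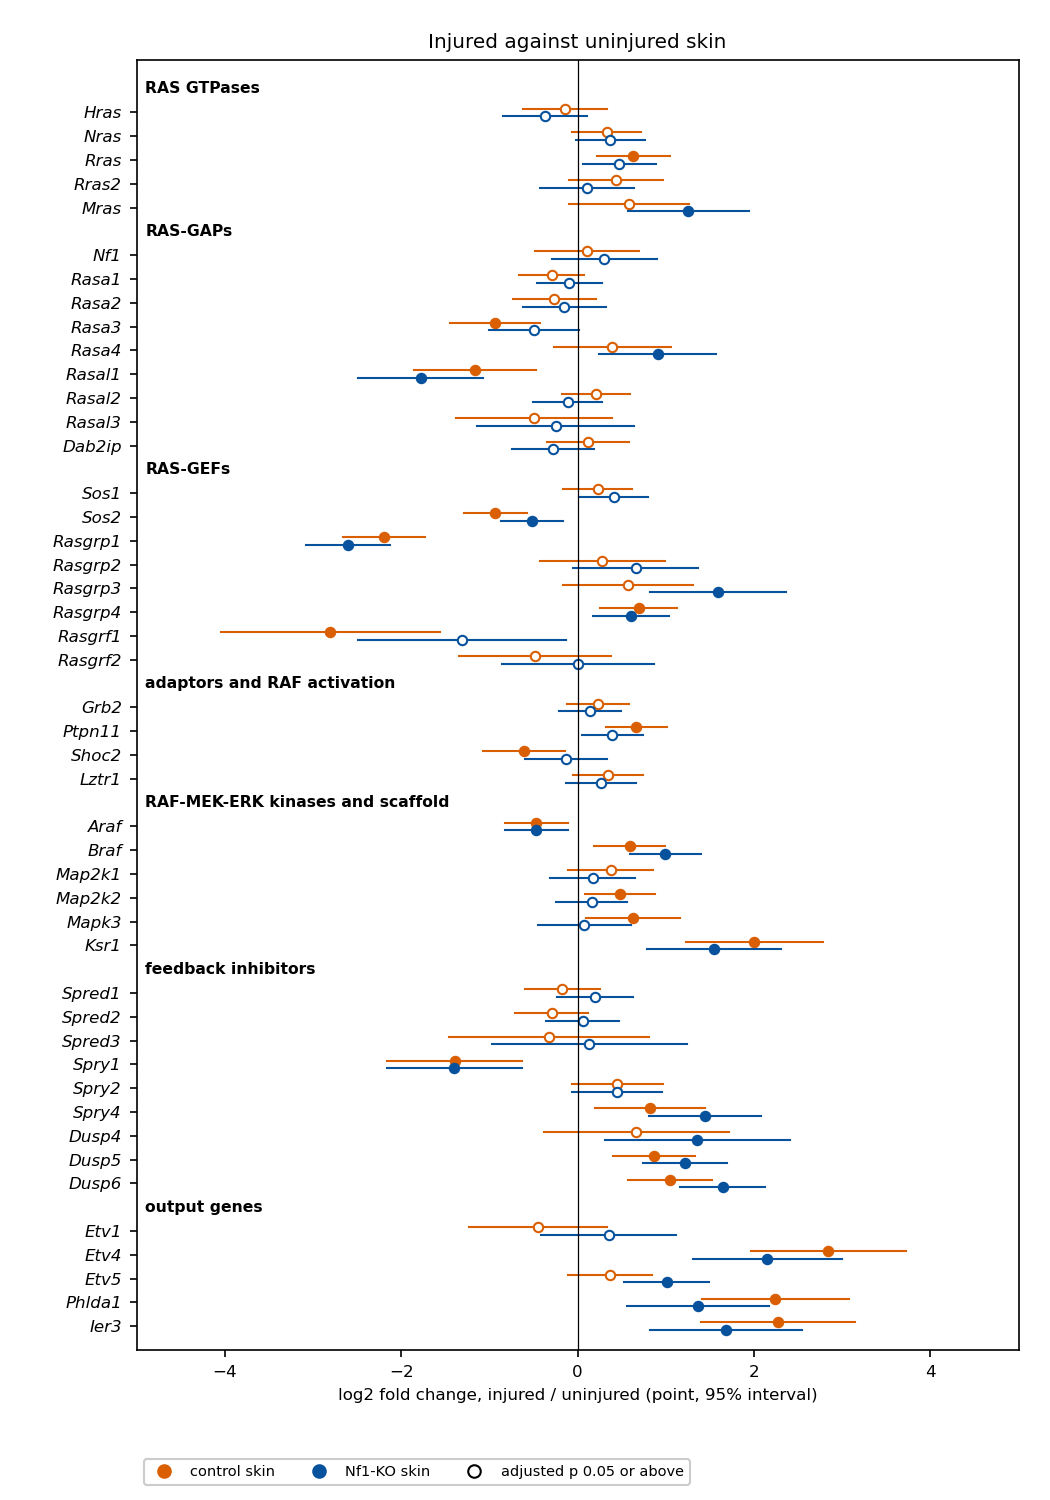
Log2 fold change of injured over uninjured skin (horizontal axis) for each of the 46 genes, grouped by role, in control (orange) and Nf1-KO skin (blue); points are estimates, lines 95% intervals, and filled points have an adjusted p under 0.05. Rasgrp1, at -2.20 and -2.61, and Etv4, at 2.85 and 2.15, lie far from 0 on opposite sides in both genotypes.

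Among the RAS GTPases, which carry the signal from receptors to effectors, 1 of 5 was called in each genotype. Of all genes, 55.3% were called in control and 37.4% in Nf1-KO skin. Rras, a RAS relative that acts on cell adhesion, had levels of 46.1, 47.3 and 43.3 CPM in the 3 control uninjured libraries, in their numbered order as throughout, and of 64.4, 82.6 and 65.0 in control injured ones. It stood at 56.0, 47.7 and 59.4 in Nf1-KO uninjured and 72.6, 58.8 and 95.2 in Nf1-KO injured libraries. All injured control libraries lay above the uninjured ones, whereas the Nf1-KO groups overlapped. Rras rose in control skin (1.55-fold, log2 fold change 0.63 ± 0.19, adjusted p = 0.0115) and had 0.47 ± 0.19 in Nf1-KO skin (adjusted p = 0.0637). Mras, the RAS relative that joins Shoc2 in a phosphatase complex that activates RAF, stood at 7.52, 5.45 and 5.17 CPM in control uninjured and 8.18, 8.42 and 10.6 in control injured libraries. Its levels were 5.91, 4.44 and 4.52 CPM in Nf1-KO uninjured and 10.5, 7.27 and 17.8 in Nf1-KO injured libraries. The groups did not overlap in either genotype, and Nf1-KO injured 3 was the highest library. Mras rose in Nf1-KO skin (2.39-fold, log2 fold change 1.25 ± 0.32, adjusted p = 0.00729), and had 0.59 ± 0.32 in control skin (adjusted p = 0.13). Without Nf1-KO uninjured 3 and injured 3 its call was lost (log2 0.80, adjusted p = 0.074).

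The classic RAS genes did not pass the test. Nras stood at 119, 132 and 156 CPM in control uninjured and 195, 152 and 166 in control injured libraries, and at 124, 116 and 154 in Nf1-KO uninjured and 180.3, 164 and 166 in Nf1-KO injured libraries. Only the Nf1-KO groups were separate, with log2 differences of 0.33 ± 0.19 in control and 0.37 ± 0.19 in Nf1-KO skin (adjusted p = 0.137 and 0.12). Rras2, also called TC21, stood at 13, 13.6 and 24.4 CPM in control uninjured and 19.0, 27.7 and 22.2 in control injured libraries, and at 19.7, 19.3 and 27.2 in Nf1-KO uninjured and 22.9, 26.5 and 22.1 in Nf1-KO injured libraries, overlapping in both genotypes. Hras, the most abundant member per kb in uninjured control skin, ranged over 285 to 379.7 CPM in uninjured and 184 to 334 in injured libraries (adjusted p = 0.626 and 0.203).

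Of the 9 RAS-GAPs, which switch RAS off, Rasal1 and Rasa3 were called lower in control skin and none higher. In Nf1-KO skin Rasal1 was called lower and Rasa4 higher. Of all genes, 32.5% were called lower in control and 18.4% in Nf1-KO skin, and 22.8% and 19.1% higher. Rasal1, a calcium-responsive RAS-GAP, stood at 5.55, 7.14 and 11 CPM in control uninjured and 4.35, 3.23 and 3.07 in control injured libraries. The Nf1-KO levels were 7.88, 9.12 and 7.32 CPM uninjured and 2.05, 2.05 and 3.01 injured. Every injured library lay under every uninjured one. Rasal1 fell 2.23-fold in control (log2 fold change -1.16 ± 0.33, adjusted p = 0.00702) and 3.43-fold in Nf1-KO skin (log2 fold change -1.78 ± 0.34, adjusted p = 0.000782). Without control uninjured 3, its highest library, the control call was lost (log2 -0.73, adjusted p = 0.0765).

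Rasa3, a GAP that binds membrane phosphoinositides, stood at 42.9, 63.7 and 81.0 CPM in control uninjured and 24.9, 39.8 and 33.3 in control injured libraries. Nf1-KO skin had 53.3, 51.8 and 37.6 uninjured and 28.1, 34.4 and 39.1 injured. The control groups were separate and the Nf1-KO groups overlapped. Rasa3 fell in control skin (log2 fold change -0.94 ± 0.24, adjusted p = 0.00436) and had -0.49 ± 0.24 in Nf1-KO skin (adjusted p = 0.117). Rasa4, another calcium-responsive GAP, stood at 14.3, 13.1 and 6.78 CPM in Nf1-KO uninjured and 18.6, 15.0 and 30.9 in Nf1-KO injured libraries, and at 13.4, 12.8 and 12.1 in control uninjured and 15.8, 22.1 and 12.4 in control injured libraries. Nf1-KO uninjured 3 was the lowest and Nf1-KO injured 3 the highest library. It rose in Nf1-KO skin (log2 fold change 0.91 ± 0.31, adjusted p = 0.0318), but the call was lost without either of these (log2 0.67, adjusted p = 0.105, and log2 0.57, adjusted p = 0.155) or without Nf1-KO uninjured 2 (adjusted p = 0.0612), and without both number 3 libraries the value was log2 0.31, adjusted p = 0.392.

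The other GAPs, Nf1 among them, did not pass. Rasa1, a widely expressed RAS-GAP that binds activated receptors, stood at 86.8, 105 and 126 CPM in control uninjured and 80.6, 86.8 and 91.9 in control injured libraries, and at 99.1, 102 and 87.9 in Nf1-KO uninjured and 82.1, 94.9 and 94.2 in Nf1-KO injured libraries, overlapping in both. Nf1 itself had 0.10 ± 0.28 with injury in control skin and 0.30 ± 0.28 in Nf1-KO skin (adjusted p = 0.776 and 0.407). Rasa2 had -0.26 and -0.15, Rasal2 0.21 and -0.11, Rasal3 -0.50 and -0.25, and Dab2ip 0.12 and -0.27 (log2 fold changes, control then Nf1-KO).

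RAS-GEFs, which load RAS with GTP, moved in both directions. Rasgrp1, activated by diacylglycerol and known from T cells and keratinocytes, had the smallest p of all 46 members in both comparisons. It stood at 66.6, 78.8 and 79.9 CPM in control uninjured and 19.0, 17.2 and 13 in control injured libraries. In Nf1-KO skin the levels were 56.1, 80.8 and 48.5 uninjured and 8.97, 11.5 and 9.98 injured. The lowest uninjured library was above all injured ones. Rasgrp1 fell 4.59-fold in control (log2 fold change -2.20 ± 0.22, adjusted p = 3.5e-06) and 6.09-fold in Nf1-KO skin (log2 fold change -2.61 ± 0.23, adjusted p = 6.84e-07), and was called under all alternatives tried. T cell markers summed to 82.9 to 91.0 CPM in control uninjured and 47.5 to 52.8 in control injured skin, and to 31.9 to 80.5 and 28.7 to 38.4 in Nf1-KO skin, with 2 and 3 of 7 called lower. Keratinocyte markers also fell, and the part of either in the change of Rasgrp1 was not tested.

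Sos2, which Grb2 brings to activated receptors, stood at 42.5, 50.2 and 46.4 CPM in control uninjured and 24.5, 23 and 25.4 in control injured libraries. It stood at 33.6, 39.4 and 32.5 in Nf1-KO uninjured and 22.5, 25.7 and 25.4 in Nf1-KO injured libraries. Those from injured skin were lower without overlap in both genotypes. Sos2 fell in control (log2 fold change -0.93 ± 0.17, adjusted p = 0.000402) and in Nf1-KO skin (log2 fold change -0.52 ± 0.17, adjusted p = 0.0233), the latter call being lost without Nf1-KO uninjured 2 (adjusted p = 0.0859) or Nf1-KO injured 1 (adjusted p = 0.164). Its close relative Sos1 ranged over 26.7 to 33.1 CPM in uninjured and 28.4 to 44.4 in injured skin, with log2 fold changes of 0.23 ± 0.18 and 0.41 ± 0.19 (adjusted p = 0.311 and 0.0893).

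Rasgrf1, a calcium-regulated exchange factor of neurons, stood at 9.59, 5.30 and 3.22 CPM in control uninjured and 0.711, 0.823 and 1.00 in control injured libraries. The Nf1-KO libraries had 5.73, 4.90 and 1.26 uninjured and 0.769, 1.83 and 2.24 injured. Control groups were separate, and Nf1-KO uninjured 3 lay within the injured range. Rasgrf1 fell in control skin (log2 fold change -2.81 ± 0.59, adjusted p = 0.00109) and had -1.31 ± 0.56 in Nf1-KO skin (adjusted p = 0.0729). The background over its exons equalled 31.5% to 46.7% of its level in uninjured control libraries, and without control uninjured 1 and 2 the call was lost (log2 -1.91, adjusted p = 0.0721), while without control uninjured 1 the log2 fold change was -2.22. Rasgrf2 had -0.49 ± 0.41 and 0.00 ± 0.41 (adjusted p = 0.325 and 0.995).

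The other diacylglycerol-regulated factors did not follow Rasgrp1. Rasgrp3, known from B cells and vessels, stood at 1.43, 2.38 and 2.71 CPM in Nf1-KO uninjured and 7.76, 5.08 and 6.88 in Nf1-KO injured libraries, and at 5.08, 3.07 and 2.90 in control uninjured and 4.53, 6.59 and 5.21 in control injured libraries. It rose 3.01-fold in Nf1-KO skin (log2 fold change 1.59 ± 0.36, adjusted p = 0.00322), where the groups were separate, and had 0.57 ± 0.35 in control skin (adjusted p = 0.175), where they overlapped. Blood endothelial markers summed to 35.6 to 48.7 CPM in Nf1-KO uninjured and 106 to 216 in Nf1-KO injured skin, and their part was not tested. Rasgrp4, known from mast cells, ranged over 12.6 to 14.2 CPM in control uninjured and 16.8 to 26.6 in control injured skin, and over 16.6 to 19.1 and 23.6 to 30.2 in the Nf1-KO groups. It rose in control (log2 fold change 0.69 ± 0.21, adjusted p = 0.01) and in Nf1-KO skin (log2 fold change 0.61 ± 0.21, adjusted p = 0.0295). Mast cell markers summed to 11.5 to 20.6 and 189.8 to 361 CPM in control and to 12.3 to 29.3 and 218 to 347 in Nf1-KO skin, and their part was not tested. Its calls were lost without control injured 1 in control skin (adjusted p = 0.0523), and in Nf1-KO skin without uninjured 1 or 2 or injured 1 or 3 (adjusted p = 0.0535 to 0.124). It shares 15.4% of its exonic bases with Fam98c on the other strand, which these libraries do not tell apart. Rasgrp2, known from platelets, had 0.28 ± 0.33 and 0.66 ± 0.34 (adjusted p = 0.498 and 0.131).

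**Figure D3:**
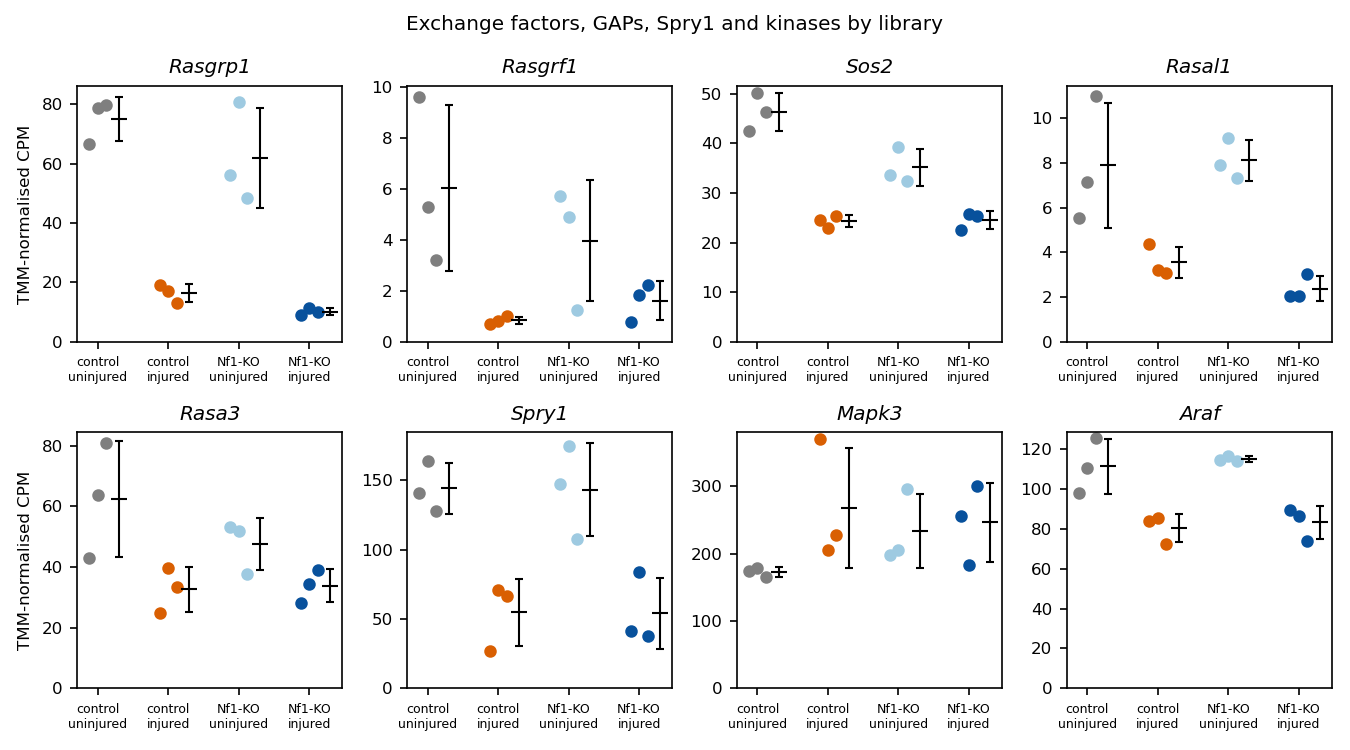
TMM-normalised CPM (vertical axis, from 0) of 8 members in the 12 libraries, 3 points for each of the 4 groups on the horizontal axis; the horizontal tick and bar beside the points are the mean and SD. The injured libraries lie under the uninjured ones in both genotypes for Rasgrp1, Sos2, Rasal1, Spry1 and Araf, while the groups of Mapk3 overlap in Nf1-KO skin.

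Among the 4 adaptors and RAF activators, 2 were called in control skin, Ptpn11 higher and Shoc2 lower, and 0 in Nf1-KO skin. The share called over all genes was 55.3% in control and 37.4% in Nf1-KO skin. Ptpn11, the SHP2 phosphatase that promotes RAS activation, stood at 62.6, 56.4 and 64.1 CPM in control uninjured and 98.4, 86.8 and 105 in control injured libraries, and at 73.2, 60.3 and 71.9 in Nf1-KO uninjured and 89.1, 92.3 and 88.5 in Nf1-KO injured libraries. Injured libraries were higher without overlap in both genotypes. It rose in control skin (log2 fold change 0.66 ± 0.16, adjusted p = 0.00302) and had 0.39 ± 0.16 in Nf1-KO skin (adjusted p = 0.066). Shoc2, a scaffold of the phosphatase that activates RAF, stood at 68.7, 91.7 and 125 CPM in control uninjured and 71.3, 53.1 and 63.1 in control injured libraries, and at 69.8, 73.4 and 51.8 in Nf1-KO uninjured and 56.4, 67.3 and 54.1 in Nf1-KO injured libraries. The groups overlapped, with control uninjured 3 highest. Shoc2 fell in control skin (log2 fold change -0.61 ± 0.22, adjusted p = 0.0282), a call that was lost without control uninjured 2 or 3 or control injured 2 or 3 (log2 -0.25, adjusted p = 0.34 without control uninjured 3, and adjusted p = 0.0582 to 0.149 without the others).

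Grb2 and Lztr1 did not pass in either genotype. Grb2, the adaptor between receptors and Sos proteins, stood at 51.5, 57.1 and 57.9 CPM in control uninjured and 69.0, 66.9 and 60.4 in control injured libraries, and at 59.9, 57.0 and 58.2 in Nf1-KO uninjured and 59.6, 56.8 and 77.2 in Nf1-KO injured libraries (log2 0.24 ± 0.17 and 0.14 ± 0.17). Lztr1, which marks RAS proteins for degradation, stood at 34.4, 44.4 and 55.7 CPM in control uninjured and 61.9, 51.9 and 57.8 in control injured libraries, and at 51.2, 43.1 and 47.0 in Nf1-KO uninjured and 51.3, 58.4 and 60.7 in Nf1-KO injured libraries (log2 0.35 ± 0.19 and 0.27 ± 0.19). Grb2 was separate between the groups in control skin and Lztr1 in Nf1-KO skin, with adjusted p between 0.123 and 0.51.

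Of the 6 kinases and scaffolds, 4 rose and 1 fell in control skin, and 2 rose and 1 fell in Nf1-KO skin. Of all genes, 22.8% rose and 32.5% fell in control skin, and 19.1% and 18.4% in Nf1-KO skin. Ksr1, the scaffold that holds RAF, MEK and ERK together, stood at 7.05, 5.30 and 4.23 CPM in control uninjured and 26.9, 19.3 and 20.1 in control injured libraries. It stood at 4.21, 5.90 and 12.9 in Nf1-KO uninjured and 24.2, 15.0 and 28.1 in Nf1-KO injured libraries. Those from injured skin were higher without overlap in both, with Nf1-KO uninjured 3 closest to them. Ksr1 rose 4.02-fold in control (log2 fold change 2.01 ± 0.37, adjusted p = 0.000473) and 2.92-fold in Nf1-KO skin (log2 fold change 1.55 ± 0.36, adjusted p = 0.00376), or by log2 2.17, adjusted p = 0.000229 without Nf1-KO uninjured 3. Adding the share of ribosomal RNA-like counts to the fit made the changes smaller (log2 1.32, adjusted p = 0.0124 in control, and log2 0.93, adjusted p = 0.0754 in Nf1-KO skin, where the call was lost).

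The RAF genes moved apart. Braf, the RAF kinase with the highest activity towards MEK, stood at 31.9, 39.1 and 37.3 CPM in control uninjured and 62.9, 41.3 and 59.0 in control injured libraries, and at 35.9, 32.8 and 35.5 in Nf1-KO uninjured and 76.2, 74.5 and 57.3 in Nf1-KO injured libraries. Injured libraries were higher without overlap in both genotypes. Braf rose 1.51-fold in control (log2 fold change 0.59 ± 0.19, adjusted p = 0.0157) and 2.00-fold in Nf1-KO skin (log2 fold change 1.00 ± 0.19, adjusted p = 0.000934), and its control call was lost without control injured 1 (adjusted p = 0.0593). Araf, the X-linked RAF kinase, stood at 98.1, 111 and 126 CPM in control uninjured and 84.2, 85.2 and 72.4 in control injured libraries, and at 115, 117 and 114 in Nf1-KO uninjured and 89.5, 86.7 and 73.8 in Nf1-KO injured libraries. Injured libraries were lower without overlap. Araf fell in control (log2 fold change -0.47 ± 0.17, adjusted p = 0.0267) and Nf1-KO skin (log2 fold change -0.47 ± 0.17, adjusted p = 0.0394), but each call was lost without any 1 of the 6 libraries compared (adjusted p = 0.0578 to 0.253 in control and 0.0627 to 0.136 in Nf1-KO skin).

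MEK and ERK genes were called in control skin only. Map2k2, which encodes MEK2, stood at 143, 135 and 157 CPM in control uninjured and 186, 208 and 213 in control injured libraries, and at 166, 145 and 218 in Nf1-KO uninjured and 185, 218 and 189.7 in Nf1-KO injured libraries, which overlapped. It rose in control skin (log2 fold change 0.48 ± 0.19, adjusted p = 0.0408) and had 0.16 ± 0.19 in Nf1-KO skin (adjusted p = 0.519), and the control call was lost without control uninjured 2 or control injured 2 or 3 (adjusted p = 0.0759 to 0.136). Mapk3, which encodes ERK1, stood at 174, 179 and 165 CPM in control uninjured and 369.5, 206 and 227 in control injured libraries, with control injured 1 above the rest, and at 199, 206 and 296 in Nf1-KO uninjured and 256, 184 and 299.6 in Nf1-KO injured libraries, which overlapped. It rose in control skin (log2 fold change 0.63 ± 0.25, adjusted p = 0.0417; 0.08 ± 0.25 in Nf1-KO skin, adjusted p = 0.829), and the call was lost without control injured 1 (log2 0.35, adjusted p = 0.242) or control uninjured 2 (adjusted p = 0.0824). Control injured 1 also had the largest ribosomal RNA-like share, 2.00% of counts, and with that share in the fit the Mapk3 value was log2 -0.06, adjusted p = 0.845. Map2k1, which encodes MEK1, had 0.38 ± 0.23 and 0.17 ± 0.23 (adjusted p = 0.177 and 0.573).

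Feedback inhibitors were called in 4 of 9 cases in control and 5 of 9 in Nf1-KO skin, all higher except Spry1. Of all genes, 55.3% and 37.4% were called, 22.8% and 19.1% higher. Dusp6, the cytoplasmic phosphatase that removes phosphate from ERK, stood at 22.2, 35.3 and 43.3 CPM in control uninjured and 61.9, 65.7 and 81.5 in control injured libraries. It stood at 25.0, 22.5 and 22.4 in Nf1-KO uninjured and 66.2, 88.4 and 64.0 in Nf1-KO injured libraries. Those from injured skin were higher without overlap in both. Dusp6 rose 2.07-fold in control (log2 fold change 1.05 ± 0.23, adjusted p = 0.00127) and 3.13-fold in Nf1-KO skin (log2 fold change 1.64 ± 0.23, adjusted p = 5.72e-05). Dusp5, the nuclear ERK phosphatase, stood at 15.4, 26.2 and 20.6 CPM in control uninjured and 41.9, 32.2 and 39.8 in control injured libraries, and at 16.6, 16.2 and 14.5 in Nf1-KO uninjured and 39.2, 42.8 and 27.7 in Nf1-KO injured libraries. The groups were again separate. Dusp5 rose 1.83-fold in control (log2 fold change 0.87 ± 0.22, adjusted p = 0.0039) and 2.32-fold in Nf1-KO skin (log2 fold change 1.22 ± 0.22, adjusted p = 0.00066). Without control uninjured 1 and 2 together the control calls of Dusp6 (log2 0.69, adjusted p = 0.0845) and Dusp5 (log2 0.88, adjusted p = 0.0517) were lost.

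The Sprouty genes, inhibitors of receptor signalling to RAS, moved in opposite directions. Spry4 stood at 4.14, 3.68 and 3.53 CPM in control uninjured and 6.49, 7.35 and 6.21 in control injured libraries, and at 3.14, 4.60 and 2.35 in Nf1-KO uninjured and 9.10, 8.68 and 9.90 in Nf1-KO injured libraries, all separate. It rose in control (log2 fold change 0.82 ± 0.30, adjusted p = 0.0269) and in Nf1-KO skin (log2 fold change 1.45 ± 0.30, adjusted p = 0.00156), and the control call was lost without control uninjured 2 (adjusted p = 0.0744) or control injured 2 (adjusted p = 0.0592). Spry1 stood at 141, 164 and 127 CPM in control uninjured and 27.1, 70.7 and 66.6 in control injured libraries. It stood at 147, 175 and 108 in Nf1-KO uninjured and 41.3, 83.7 and 37.7 in Nf1-KO injured libraries. Injured libraries were lower without overlap. Spry1 fell 2.62-fold in control (log2 fold change -1.39 ± 0.36, adjusted p = 0.00493) and 2.64-fold in Nf1-KO skin (log2 fold change -1.40 ± 0.36, adjusted p = 0.00818), and with the ribosomal RNA-like covariate the values were log2 -0.47, adjusted p = 0.0828, and log2 -0.54, adjusted p = 0.0681. It shares 24.4% of its exonic bases with Gm42922 on the other strand. Spry2 had 0.45 ± 0.24 in control and 0.45 ± 0.24 in Nf1-KO skin (adjusted p = 0.127 and 0.151).

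Dusp4, a nuclear phosphatase of ERK and related kinases, ranged over 0.717 to 1.54 CPM in uninjured and 1.51 to 4.51 in injured skin, with Nf1-KO injured 2 highest. It rose in Nf1-KO skin (log2 fold change 1.36 ± 0.50, adjusted p = 0.0408), and the call was lost without Nf1-KO injured 2 (log2 0.82, adjusted p = 0.245) or Nf1-KO uninjured 1 or 2 (adjusted p = 0.147 and 0.123), and with the replicate block (adjusted p = 0.062). Spred genes, whose products inhibit RAF activation and, in the case of Spred1, bring neurofibromin to the membrane, did not pass. Spred1 had -0.17 ± 0.20 and 0.20 ± 0.20, Spred2 -0.29 ± 0.20 and 0.06 ± 0.20, and Spred3, at 1.07 to 3.36 CPM, -0.33 ± 0.54 and 0.14 ± 0.52 (log2, control then Nf1-KO).

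Output genes, induced by ERK in many cells, were called higher in 3 of 5 cases in control and 4 of 5 in Nf1-KO skin, none lower. Of all genes, 22.8% and 19.1% were called higher. Etv4, an ETS factor of the PEA3 group, stood at 3.01, 3.76 and 5.36 CPM in control uninjured and 37.6, 18.6 and 32.1 in control injured libraries. It stood at 4.93, 3.14 and 11.7 in Nf1-KO uninjured and 25.8, 31.5 and 29.9 in Nf1-KO injured libraries. Those from injured skin were higher without overlap, and Nf1-KO uninjured 3 was the highest uninjured one. Etv4 rose 7.19-fold in control (log2 fold change 2.85 ± 0.41, adjusted p = 0.000111) and 4.44-fold in Nf1-KO skin (log2 fold change 2.15 ± 0.40, adjusted p = 0.000838). Phlda1, a pleckstrin homology-like protein linked to growth factor response, stood at 7.52, 6.91 and 9.97 CPM in control uninjured and 40.9, 31.9 and 43.2 in control injured libraries, and at 9.14, 8.43 and 29.1 in Nf1-KO uninjured and 47.6, 36.0 and 36.6 in Nf1-KO injured libraries. Nf1-KO uninjured 3 was again highest among uninjured libraries. Phlda1 rose 4.74-fold in control (log2 fold change 2.24 ± 0.39, adjusted p = 0.000466) and 2.58-fold in Nf1-KO skin (log2 fold change 1.37 ± 0.38, adjusted p = 0.0121). It shares 33.0% of its exonic bases with Gm28592 on the other strand.

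Ier3, an early response gene linked to cell survival, stood at 22.9, 18.3 and 40.1 CPM in control uninjured and 154, 89.5 and 151 in control injured libraries, and at 34.6, 23.5 and 60.5 in Nf1-KO uninjured and 182, 101 and 96.4 in Nf1-KO injured libraries. All injured libraries lay above the uninjured ones. Ier3 rose 4.83-fold in control (log2 fold change 2.27 ± 0.41, adjusted p = 0.000711) and 3.21-fold in Nf1-KO skin (log2 fold change 1.68 ± 0.40, adjusted p = 0.00607). Without Nf1-KO uninjured 3 the Nf1-KO changes were larger for Etv4 (log2 2.88, adjusted p = 4.15e-05) and Phlda1 (log2 2.21, adjusted p = 1.87e-05), and without both number 3 libraries for Ier3 (log2 2.31, adjusted p = 0.00175). Etv5, of the same PEA3 group, stood at 11.8, 17.8 and 19.8 CPM in control uninjured and 24.1, 16.6 and 23.3 in control injured libraries, which overlapped. In Nf1-KO skin it stood at 13.8, 12 and 12.3 uninjured and 24.6, 28.9 and 23.2 injured, without overlap. It rose in Nf1-KO skin (log2 fold change 1.01 ± 0.23, adjusted p = 0.00305) and had 0.37 ± 0.23 in control skin (adjusted p = 0.181). Etv1, the remaining PEA3 gene, had -0.44 ± 0.37 and 0.35 ± 0.36 (adjusted p = 0.323 and 0.455). Hair follicle and cell cycle markers rose in the same libraries, the latter with sums of 155 to 267 CPM in uninjured and 400.1 to 569.8 in injured skin, and their part in the output genes was not tested.

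**Figure D4:**
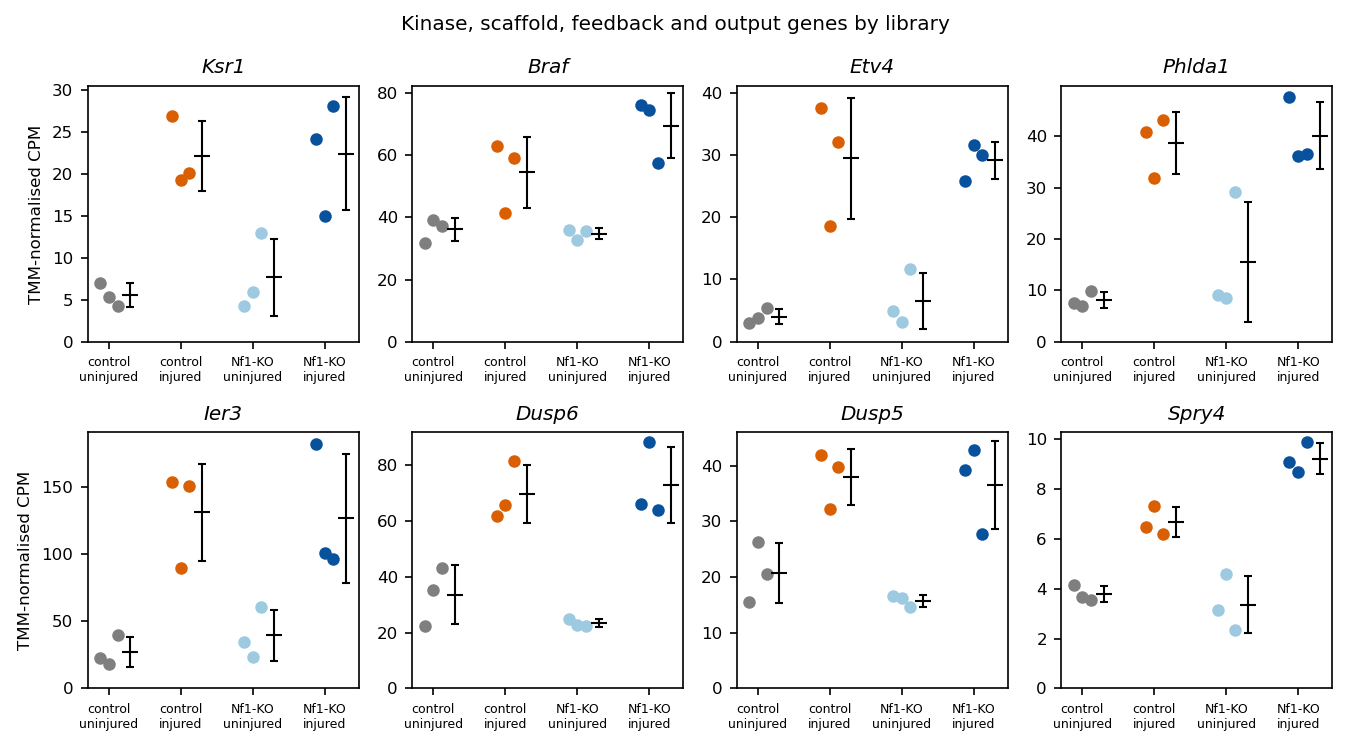
TMM-normalised CPM (vertical axis, from 0) of 8 members that rose with injury, 3 libraries for each of the 4 groups on the horizontal axis; the tick and bar beside the points are the mean and SD. Nf1-KO uninjured 3 is the highest uninjured point for Ksr1 (12.9 CPM), Etv4 (11.7 CPM), Phlda1 (29.1 CPM) and Ier3 (60.5 CPM).

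Of the 40 calls in both injury comparisons, 15 were kept under every alternative setting. They were those of Rasgrp1, Sos2, Ksr1, Etv4, Phlda1 and Ier3 in control skin and of Rasgrp1, Rasgrp3, Rasal1, Braf, Dusp5, Dusp6, Spry4, Etv4 and Etv5 in Nf1-KO skin. Adding the ribosomal RNA-like share to the fit ended 19 calls, those of Rras, Rasa3, Rasgrp4, Shoc2, Araf, Braf, Map2k2, Mapk3, Spry1 and Spry4 in control skin and of Mras, Rasa4, Sos2, Rasgrp4, Araf, Ksr1, Spry1, Phlda1 (log2 1.09, adjusted p = 0.114) and Ier3 (log2 1.33, adjusted p = 0.0833) in Nf1-KO skin. Leaving out control uninjured 1 and 2, the libraries with most background, ended the control calls of Rras, Ptpn11, Rasgrf1, Rasgrp4, Araf, Braf, Map2k2, Mapk3, Spry1, Spry4, Dusp5 and Dusp6. Other scaling, filters or tools ended calls of Map2k2, Mapk3 and Shoc2 in control skin, of Rasa4, Rasgrp4, Sos2 and Dusp4 in Nf1-KO skin, and of Araf in both. Members called in 1 genotype only are not thereby shown to respond differently. In the test of the difference between the injury responses edgeR called 0 members and 0 of 23635 genes (0%), with 0 members and 2541 genes at an unadjusted p under 0.05. DESeq2 called 37 genes and limma voom 0, none a member. The members' median difference, Nf1-KO minus control, was 0.15, beside 0.17 over all genes. Rasgrp3 (1.02 ± 0.50), Rasgrf1 (1.5 ± 0.80), Etv5 (0.65 ± 0.32), Dusp6 (0.59 ± 0.32) and Phlda1 (-0.88 ± 0.53) had adjusted p from 0.479 to 0.557. These comparisons share no samples between genotypes, whereas each injury comparison shares its libraries with the genotype comparisons that follow.

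Between genotypes in uninjured skin, 0 of 46 members were called by edgeR, while 7 of all genes (0.0296%) were. At an unadjusted p under 0.05 there were 5 members and 1971 genes. DESeq2 called 60 genes and limma voom 1, again no member, and edgeR without a filter called 219 genes, of which 1 was a member, Phlda1 (log2 0.96, adjusted p = 0.0331). The members' median log2 difference was -0.03, beside -0.04 over all genes. The groups did not overlap for 6 members (14.8% of all genes). Rras, Dab2ip, Rasgrp4 and Mapk3 were higher in every Nf1-KO library, and Sos2 and Rasgrp3 were lower.

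Those 5 members were Phlda1, Rasgrp4, Shoc2, Dusp6 and Sos2. Phlda1 had 0.93 ± 0.38 (95% interval 0.10 to 1.75, adjusted p = 0.555), with Nf1-KO uninjured 3 at 29.1 CPM and the other 5 uninjured libraries at 6.91 to 9.97. Rasgrp4 had 0.45 ± 0.21 (0.02 to 0.89, adjusted p = 0.583). Shoc2 had -0.55 ± 0.22 (-1.01 to -0.08, adjusted p = 0.543), Dusp6 -0.53 ± 0.23 (-1.01 to -0.05, adjusted p = 0.561) and Sos2 -0.40 ± 0.17 (-0.75 to -0.05, adjusted p = 0.552). The median was -0.09 over the 9 feedback inhibitors and 0.54 over the 5 output genes, of which Etv4, Phlda1 and Ier3 were highest in Nf1-KO uninjured 3. T cell markers summed to 82.9 to 91.0 CPM in control and 31.9 to 80.5 in Nf1-KO uninjured skin, muscle markers to 623 to 959.6 and 105 to 454, and the part of neither was tested.

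In injured skin, 0 of 46 members and 0 of all genes (0%) were called between genotypes by edgeR. At an unadjusted p under 0.05 there were 2 members, Rasgrp1 and Etv1, and 2532 genes, and DESeq2 called 108 genes and limma voom 1, none a member. The median difference was 0.05 over the members and 0.12 over all genes. The groups did not overlap for 4 members (9.05% of all genes). Rasgrp1 was lower in every Nf1-KO library (8.97, 11.5 and 9.98 CPM against 19.0, 17.2 and 13 in control), with a log2 difference of -0.69 ± 0.22 (95% interval -1.15 to -0.23, adjusted p = 0.355, and 0.0801 to 1 over the alternatives). In the same libraries T cell markers summed to 28.7 to 38.4 CPM against 47.5 to 52.8 in control, with estimates below 0 for 5 of 7 genes and above 0 for 2. Keratinocyte markers summed to 15399 to 19106 against 23669 to 28728, with estimates below 0 for 9 of 9. None of these markers was called, and their part was not tested.

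The other 3 separate members were Etv1 and Spry4, higher in Nf1-KO skin, and Rasal1, lower. Etv1 stood at 2.93, 4.12 and 5.41 CPM in control injured and 8.08, 5.64 and 12.3 in Nf1-KO injured libraries, with Nf1-KO injured 3 highest, and differed by 1.05 ± 0.37 (0.27 to 1.83, adjusted p = 0.359). In the same comparison macrophage markers had estimates above 0 for 8 of 8 genes (median 0.96, summed 415 to 619 CPM in control and 540.3 to 1438 in Nf1-KO injured skin) and Schwann cell markers for 6 of 7 (median 1.32, summed 240.0 to 309.6 and 316 to 453 CPM). None of these markers was called, 7 and 4 of them had an unadjusted p under 0.05, and their part in the levels of Etv1 and Spry4 was not tested. Spry4 differed by 0.46 ± 0.29 (-0.14 to 1.07, adjusted p = 0.631) and Rasal1 by -0.58 ± 0.34 (-1.30 to 0.13, adjusted p = 0.591). Dusp6 (-0.41 to 0.53), Etv4 (-0.80 to 0.78), Phlda1 (-0.73 to 0.83) and Ier3 (-0.88 to 0.78), which rose with injury, had 95% intervals of the log2 difference on both sides of 0. These intervals leave room for differences that 3 libraries a group did not resolve, and cells of the Prss56 lineage are only a part of whole skin.

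**Figure D5:**
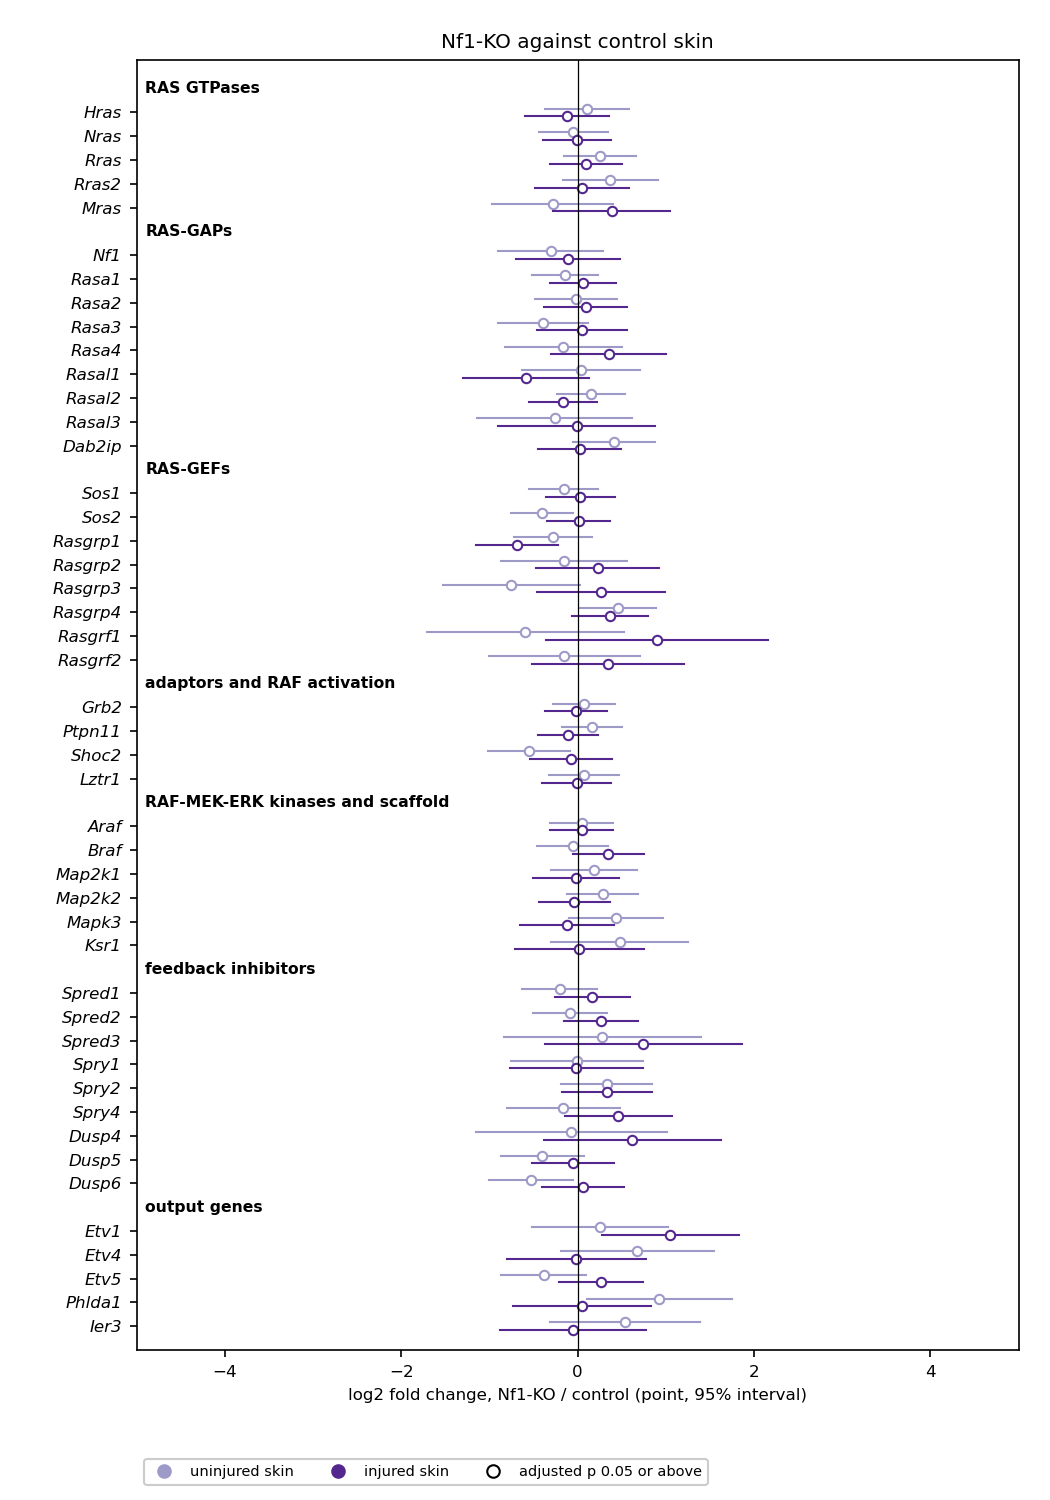
Log2 fold change of Nf1-KO over control skin (horizontal axis) for each of the 46 genes, by role, in uninjured (light purple) and injured skin (dark purple); points are estimates and lines 95% intervals. All points are open because no adjusted p was under 0.05; Rasgrp1 in injured skin, at -0.69, has an interval that does not reach 0 before adjustment.

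Other genes of the pathway, 78 in 6 lists of which 77 were tested (Dusp9 was left out by the filter), were called in 45 cases in control skin (21 higher, 24 lower) and 38 in Nf1-KO skin (21 higher, 17 lower). These are 58.4% and 49.4% of those tested, beside 55.3% and 37.4% of all genes, and their median log2 fold changes were -0.08 and 0.02. No gene of these lists was called between genotypes or in the difference between responses. Of 19 other adaptors and scaffolds, 3 rose and 8 fell in control skin and 4 rose and 3 fell in Nf1-KO skin. Lamtor2, part of the lysosomal scaffold for MEK and ERK, rose (1.54 ± 0.25 and 1.01 ± 0.24, control then Nf1-KO, here and below). Cblb, a ubiquitin ligase for activated receptors, fell (-0.96 ± 0.18 and -1.15 ± 0.19), and so did Cnksr1, a scaffold of RAF signalling (-1.09 ± 0.23 and -1.0 ± 0.23).

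Enzymes that add or remove the lipid anchors of RAS were called in 8 of 12 cases in control skin (3 higher, 5 lower) and in 9 of 12 in Nf1-KO skin (2 higher, 7 lower). Over all genes, 55.3% were called in control skin, 22.8% higher and 32.5% lower. In Nf1-KO skin 37.4% were, 19.1% higher and 18.4% lower. Lypla1, a depalmitoylating thioesterase, fell (-1.94 ± 0.29 and -1.04 ± 0.28), as did Zdhhc9, a palmitoyltransferase of RAS (-1.15 ± 0.18 and -1.15 ± 0.18), and Pggt1b, a prenyltransferase subunit (-1.40 ± 0.26 and -0.83 ± 0.26). Of 14 other RAS effectors and RAP genes, 3 rose and 4 fell in control skin, and 3 rose and 3 fell in Nf1-KO skin. Rgl1, an exchange factor for RAL proteins, rose (1.14 ± 0.23 and 1.86 ± 0.23), Rin1, a RAS effector of endocytosis, fell (-1.34 ± 0.25 and -1.47 ± 0.25), and Rala rose in control skin (0.82 ± 0.17, with 0.45 ± 0.17 in Nf1-KO skin, adjusted p = 0.0537).

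Below ERK, 3 of 11 kinases and factors rose and 3 fell in control skin, and 4 rose and 2 fell in Nf1-KO skin. Among all genes, 22.8% rose and 32.5% fell in control skin, and 19.1% rose and 18.4% fell in Nf1-KO skin. Elk3, an ETS factor phosphorylated by ERK, rose from 9.73 ± 1.92 to 46.7 ± 3.42 CPM in control and from 9.30 ± 2.51 to 61.0 ± 29.6 in Nf1-KO skin (mean ± SD, n = 3, log2 2.26 ± 0.30 and 2.71 ± 0.31). Its relative Elk4 (0.91 ± 0.19 and 0.57 ± 0.19) and the ERK-activated kinase Rps6ka3 (1.06 ± 0.17 and 0.59 ± 0.17) rose as well. Of 7 other MAP kinase phosphatases tested, 3 rose and 2 fell in control skin and 3 rose and 1 fell in Nf1-KO skin. Dusp2, an inducible phosphatase of immune cells, went from 2.47 ± 0.963 to 45.0 ± 8.68 CPM in control and from 1.99 ± 0.597 to 58.6 ± 26.6 in Nf1-KO skin (mean ± SD, n = 3, log2 4.21 ± 0.36 and 4.88 ± 0.37). Dusp14 rose too (1.43 ± 0.30 and 1.30 ± 0.30). Dusp1, an early response phosphatase, fell in control skin (-2.0 ± 0.38) and had -0.37 ± 0.36 in Nf1-KO skin (adjusted p = 0.442).

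Of 14 other genes that growth factors induce, 6 rose and 2 fell in control skin and 5 rose and 1 fell in Nf1-KO skin. The shares over all genes were 22.8% and 32.5% in control skin and 19.1% and 18.4% in Nf1-KO skin. Hbegf, a ligand of the EGF receptor, rose from 6.97 ± 2.24 to 47.8 ± 21.5 CPM in control and from 7.82 ± 2.94 to 37.3 ± 11.8 in Nf1-KO skin (mean ± SD, n = 3, log2 2.78 ± 0.39 and 2.25 ± 0.38). Plaur, the urokinase receptor, rose (2.94 ± 0.47 and 3.02 ± 0.48). Egr1, an early response transcription factor, rose in Nf1-KO skin (1.57 ± 0.28) and had 0.56 ± 0.27 in control skin (adjusted p = 0.0899). Neutrophil markers, which summed to 2.00 to 46.3 CPM in uninjured and 403 to 722 in injured skin, moved with Dusp2 and Plaur, and their part was not tested.

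Levels per kb of exon differed widely among the members. In uninjured control skin Hras (79.8 ± 2.56 CPM per kb, mean ± SD, n = 3) and Mapk3 (76.4 ± 3.12) were highest and did not differ beyond the sum of their SDs, followed by Spry1 (49.6 ± 6.36) and Rras (40.6 ± 1.83). Etv1 (0.429 ± 0.154), Dusp4 (0.414 ± 0.0681) and Spred3 (0.289 ± 0.170) were lowest, and their SDs overlapped. Per kb of the longest transcript instead, Map2k2 (60.3) passed Spry1 (51.9) and Rras (45.8), and Etv1 (0.867) ranked 39 in place of 44. Nf1, at 0.743 ± 0.160 CPM per kb, ranked 38 of 46 in control uninjured, 38 in Nf1-KO uninjured, 39 in control injured and 40 in Nf1-KO injured skin. From uninjured to injured control skin Ier3 moved from rank 7 to 2 in control skin, where its 116 ± 32.0 CPM per kb did not differ from Mapk3 (119 ± 39.4) beyond their SDs. Etv4 moved from rank 34 to 17, Rasgrp1 from 12 to 31, Rasa3 from 13 to 23 and Ksr1 from 37 to 29.

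The nasal receptor level over a gene's exons exceeded 20% of its raw CPM in an uninjured library for 13 of 46 members, and stayed under 5% in all uninjured libraries for 22. Spred3 (up to 106%), Rasgrf1 (up to 102%), Dusp4 (66.5%) and Etv1 (53.6%) were closest to it. For Etv4 it reached 28.1%, for Ksr1 30.0% and for Phlda1 8.0%. With that level subtracted from the counts, which was also tried after the data had been seen, 38 of the 40 injury calls were kept and those of Map2k2 and Mapk3 in control skin were lost.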

How the data were processed

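RNA from 12 whole-skin samples was amplified with the Smart-Seq v4 kit from 10 ng of total RNA and made into libraries with Nextera XT, per the labels' protocols. The authors deposited raw read counts per Ensembl gene, 1 column per library per the file headers. The submitters' processing notes name STAR 2.5.2b, SAMtools, HTSeq 0.5.3, DESeq2, HOMER and build mm10, without their roles. Which annotation and strand setting were used is not given in these sources. The kit does not mark strand, so reads of overlapping genes on opposite strands were not separated. 1 column matched no sample of the series and was left out, and 30 repeated columns were equal to their copies.

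Of 53379 gene IDs, 53274 matched GENCODE M21, and the other 105 held at most 0.0454% of a library's counts. All 12 libraries were fitted in edgeR 4.0.16 (R 4.3.3) with 4 group means, TMM scaling, the default filter (count minimum 10) and robust 2-sided quasi-likelihood tests. P-values were adjusted by Benjamini-Hochberg over the 23635 genes tested, and calls made under 0.05. Values are TMM-normalised CPM unless stated, with log2 fold changes ± SE. The alternatives were median-of-ratios scaling, no filter, 2 CPM in 3 samples, a replicate block, the compared groups alone, DESeq2 1.42.0, limma voom (limma 3.58.1), a covariate for ribosomal RNA-like counts, and leaving libraries out. DESeq2 was given all 49676 genes with a count. The fit was also run on simulated counts. They were drawn from means pooled over all libraries, without differences in background or ribosomal RNA-like share. No result given here rests on that run.

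The 46 members, the other gene lists and the naming rule were chosen with earlier results of these data known. The rule gives values in every sample for Nf1 and, per role, for up to 4 members with the smallest p in an injury comparison, and names up to 3 called genes per other pathway list. Same-numbered libraries did not all correlate in any comparison, so the numbers were not taken as pairs. Between genotypes these correlations ran from -0.142 to 0.423. Reads carry no molecular identifiers, and the counts per library set the precision given by the SDs and intervals.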

Additional observations from a re-analysis of the deposited data

How the results depend on the processing

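Counts of called members moved by over 1.5 times in few settings. In control skin 12 of 46 were called by injury with the ribosomal RNA-like covariate and 9 without control uninjured 1 and 2 (against 21), where 6164 genes were called (against 13072). In Nf1-KO skin the covariate gave 11 members and 4830 genes (against 19 and 8851), and leaving out 1 library gave 5647 to 10020 genes and 14 to 19 members (16 to 23 members in control skin), the fewest genes without Nf1-KO uninjured 2. The covariate ended 19 of the 40 member calls, reversed Mapk3 in control skin (log2 -0.056, adjusted p = 0.845), and in 5 calls was the single setting that ended the call. The cause was not tested, and the share is higher in injured skin.

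Genotype comparisons called few genes under most settings. For uninjured skin (against 7 genes and 0 members) the genes called were 4 with median-of-ratios scaling, 219 without a filter (1 member, Phlda1), 2 under the filter of 2 CPM in 3 samples, 60 in DESeq2, 1 in limma voom, 11 with the covariate and 27 in the compared groups alone. After background subtraction there were 4, without Nf1-KO uninjured 3 and injured 3 there were 12, and leaving out 1 library gave 0 to 6. For injured skin (against 0) they were 410 without a filter, 108 in DESeq2, 1 in limma voom, 1 with the covariate, 3 with TMM factors from all genes and 0 to 89 with 1 library left out. For the difference between responses (against 0) they were 236 without a filter, 37 in DESeq2, 4 with the covariate, 2 without control uninjured 1 and 2, 2 without the number 3 Nf1-KO libraries and 0 to 3 with 1 left out, and a fit of the compared groups alone uses all groups there and was not run. The settings without Nf1-KO libraries 3, with background subtraction and with TMM factors from all genes were chosen after seeing the data.

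With the replicate block 21 and 18 members were called by injury, with 12740, 8173, 1, 0 and 0 genes in the 5 comparisons. Deviations of same-numbered libraries correlated by 0.0795, -0.0387 and 0.0605 between the control groups, by -0.0484, 0.0786 and -0.00708 between the Nf1-KO groups, by -0.0822, 0.423 and 0.225 between the uninjured and by 0.282, 0.12 and -0.142 between the injured groups. In no comparison were all 3 over 0.1, so the numbers were not taken to pair the samples, and not every library correlated best with its own number. With the longest transcript in place of all exons, Nf1 ranked 38 of 46 per kb in control uninjured skin, while Hras and Mapk3 stayed the top 2 and Map2k2 came next. Depth limits members under about 2 CPM, such as Spred3 and Dusp4.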

Other observations

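Values are given for 3 early response genes outside the 46 members, chosen after their values were seen, for which no difference between the injury responses passed adjustment. Dusp1 had 243, 223 and 141 CPM in the control uninjured and 47.6, 45.5 and 59.0 in the control injured libraries, in numbered order, against 73.6, 109.7 and 82.4 in Nf1-KO uninjured and 122, 45.6 and 38.6 in Nf1-KO injured ones. Uninjured control libraries were the highest of the 4 groups, and the difference between the responses was 1.63 ± 0.52 (log2, Nf1-KO minus control, edgeR adjusted p = 0.442). Fos, an AP-1 subunit induced within minutes of a stimulus, had 45.8, 71.1 and 39.4 CPM in control uninjured and 26.7, 20.3 and 28.9 in control injured libraries. It had 14.5, 21.8 and 16.2 in Nf1-KO uninjured and 133, 21.2 and 12.7 in Nf1-KO injured libraries, with Nf1-KO injured 1 highest, and the difference between the responses was 2.71 ± 1.06 (edgeR adjusted p = 0.451). For Egr1 it was 1.01 ± 0.38 (edgeR adjusted p = 0.442).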
